A study of Mus musculus with 6 samples.

Results

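The miRNAs named miR-297, miR-466, miR-467 and miR-669 are 4 families of mouse miRNAs, most of which are made from a tandem repeat inside the gene Sfmbt2. All entries of the miRNA table whose names begin with one of these 4 numbers followed by a letter or an arm were taken, which gave 80 of 1915 mature miRNAs. They comprised 6 entries of miR-297, 31 of miR-466, 13 of miR-467 and 30 of miR-669. Small RNA was sequenced from whole brains of wild-type C57BL/6 mouse embryos at E15.5, in 3 libraries from females and 3 from males, and values are given in the order of their replicate numbers. Each library held the pooled RNA of 2 to 3 embryos, so that pools and not embryos were the replicates, and the embryos had been sexed by the presence or absence of testicular cords. All groups shared genotype, tissue and stage, and the comparison asked which miRNAs differed between male and female brains.

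A miRNA is cut from a hairpin precursor, whose 5' and 3' sides give the 5p and 3p mature forms, and it recognises its target mRNAs mainly through the seed near its 5' end. Sfmbt2 encodes a Polycomb group protein and is an imprinted gene expressed mainly from the paternal allele in the early embryo and the placenta. Its intronic miRNA cluster is found in mice and rats, and is known for high expression in the placenta and in embryonic stem cells. In the mm9 annotation, Sfmbt2 spans bases 10292137 to 10516880 of chromosome 2 on the plus strand, a length of 224.7 kb.

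The annotation named 84 precursor genes of these families, of which 73 lay inside Sfmbt2, all on its strand. These 73 comprised 5 precursors of miR-297, 24 of miR-466, 13 of miR-467 and 31 of miR-669. They occupied 51.3 kb, from base 10388571 to base 10439906, and all of them lay within intron 10 of the transcript Sfmbt2-001, which runs from base 10383100 to base 10445571. The repeat was regular in its middle, where a miR-467, a miR-466 and a miR-669 precursor followed each other in this order 11 times. Each such run was 0.60 to 0.61 kb long, and the starts of neighbouring runs lay 2.41 to 4.91 kb apart, with a median of 2.45 kb. The map of the precursors shows this spacing as ticks that recur in the rows of miR-466, miR-467 and miR-669, with most miR-297 precursors toward the 3' end.

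**Figure D1:**
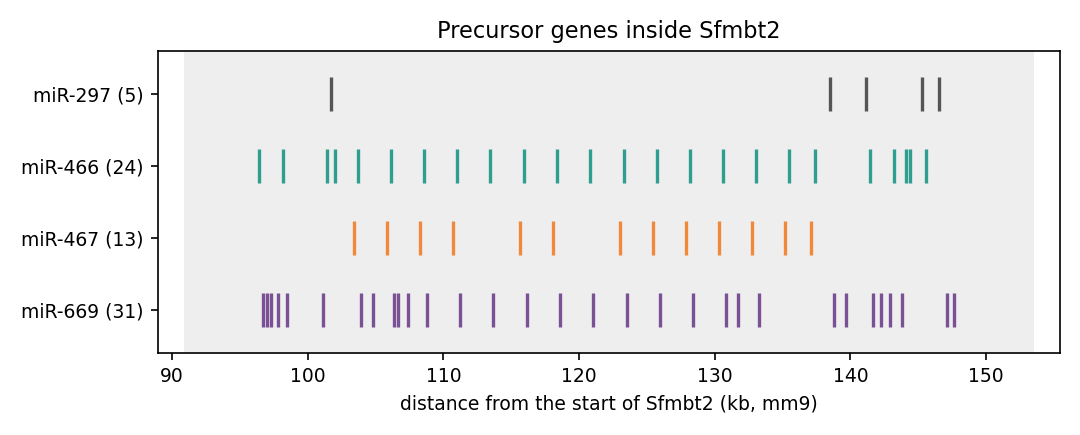
Position of the 73 precursor genes inside Sfmbt2, as distance from the start of the gene (kb, mm9), 1 row per family with the number of precursors in brackets and 1 tick per precursor. The shaded span is intron 10 of Sfmbt2-001, and all ticks lie inside it.

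The other 11 precursors lay outside Sfmbt2, on chromosomes 2, 3, 5, 7, 9, 10, 11 and 13. They comprised 3 of miR-297, 4 of miR-466, 3 of miR-467 and 1 of miR-669. Of the 80 mature entries, 62 had precursors of their name only inside Sfmbt2, 8 only outside it and 5 in both places, while the precursors of 5 entries were not matched by name. The RefSeq table of mature miRNAs (GRCm38.p6) held 8 of the 80 entries, all with precursors outside Sfmbt2 or not matched. These 8 do not show what the mature sequences from inside Sfmbt2 look like. The sequences of 5 of them are shown because they contain simple repeats, with the seed, bases 2 to 8 from the 5' end, in capitals.
miR-466i-3p: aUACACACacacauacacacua
miR-466k: uGUGUGUGuacauguacauguga
miR-467f: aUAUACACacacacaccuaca
miR-467h: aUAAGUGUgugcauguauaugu
miR-669n: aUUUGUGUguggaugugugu
In miR-466i-3p and miR-467f, the pair AC was repeated 5 and 6 times in a row, and in miR-466k and miR-669n the pair UG was repeated 4 times. No seed was shared between any of the 8 entries. The seed of miR-467h was also that of miR-668-5p, a miRNA outside these families, shown with the same marking.
miR-668-5p: gUAAGUGUgccucgggugagcaug
miR-668-5p had 10, 187 and 54 reads in females and 66, 167 and 39 reads in males, whereas miR-467h had 7 reads in all. miR-466k and miR-467f had no read, and miR-669n had 3.

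The total count on miRNAs ranged from 14802675 to 59362011 reads per library, and 660 to 915 miRNAs had a read. Female library 2 stood apart, with the highest total and the fewest miRNAs detected. Levels are given in CPM (reads on a miRNA per 1000000 miRNA reads of its library). The brain markers miR-9-5p, miR-124-3p and miR-128-3p together took 193100 to 211700 CPM in females and 162400 to 187900 CPM in males, without overlap. miR-9-5p held most of that sum, and miR-128-3p overlapped between the sexes (6238 to 7144 CPM in females, 6481 to 7094 CPM in males). None of the 3 passed edgeR's test for a difference between the sexes. Markers of muscle and epithelium rose in males. The 3 skeletal muscle markers (miR-1a-3p, miR-133a-3p and miR-206-3p) summed to 388.0 to 1166 CPM in females and 5452 to 6099 CPM in males, and all 3 passed that test. The 6 epithelial markers (the miR-200 family with miR-141-3p, and miR-205-5p) summed to 428.5 to 1133 CPM in females and 7990 to 8284 CPM in males, and 5 of them passed. The 3 red blood cell markers (miR-451a, miR-144-3p and miR-486a-5p) summed to 646.2 to 1354 CPM in females and 1595 to 1972 CPM in males, and only miR-486a-5p, which held most of that sum, passed. miR-451a had 10.7 to 41.5 CPM in females and 24.4 to 37.7 CPM in males, and miR-144-3p had 2.86 to 6.62 CPM and 0.212 to 4.67 CPM. The miR-290 cluster, which marks pluripotent cells and trophoblast, where the Sfmbt2 miRNAs are best known, summed over its 12 members to 6.84 to 13.1 CPM in females and 3.34 to 6.76 CPM in males. Of that cluster, miR-290a-3p had no read in any library, 10 members had none in female library 2 and none passed the test. The part of these other tissues in the sex differences of the 4 families was not tested.

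Of the 80 entries, 63 had at least 1 read, 17 had none and 8 had 1 to 9 reads in total. At least 1 read was found in every library for 27 entries. The number of entries detected was 47, 33 and 49 for the females and 43, 45 and 43 for the males. Female library 2 thus detected the fewest although it was the deepest. In it, 30 of the 63 entries with a read were at 0, and 6 of these had at least 10 reads in each other library. miR-467a-3p and miR-467d-3p, which share one set of counts, had 76, 0 and 96 reads in females and 76, 189 and 128 reads in males. The 0 in female library 2 allows a level of up to 0.0505 CPM (3 reads of the total, counting error only), against 2.68 to 5.42 CPM in the other libraries. miR-669h-5p likewise had 47, 0 and 46 reads in females and 33, 166 and 128 reads in males. miR-466f-3p had 13, 0 and 19 reads in females and 50, 107 and 43 reads in males. The remaining 2 of these 6 entries were miR-466c-5p and miR-466n-3p.

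Many entries had the same counts as another entry. There were 9 sets of entries with the same count in all 6 libraries, holding 21 entries. The largest were miR-466b-3p, miR-466c-3p, miR-466e-3p and miR-466p-3p, with 4 entries, and miR-297a-3p, miR-297b-3p and miR-297c-3p, with 3. The others paired miR-467a-5p with miR-467b-5p, miR-467a-3p with miR-467d-3p, miR-669a-5p with miR-669p-5p, miR-669a-3p with miR-669o-3p, miR-466b-5p with miR-466o-5p and miR-466f-5p with miR-466f. The last pair, miR-466m-5p and miR-669m-5p, joined entries of different families, with 9 reads in female library 1, 47 in male library 1 and none elsewhere. Equal counts need not mean shared reads where few libraries had any. The pair miR-466f-5p and miR-466f had 16 reads in female library 1 only, and so did miR-219c-3p, outside these families. The 63 entries with a read therefore held 51 distinct sets of counts. Counts of such entries are uncertain one by one, and the annotation likewise repeats single names, with 9 precursors named miR-467a, 9 named miR-466b and 13 named miR-669a. Each set was counted once in sums, and its entries are named together.

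With each set counted once, the 4 families held a small share of the miRNA reads, from 0.0410% to 0.0705% of the total. The sum was 549.4, 410.3 and 705.2 CPM in females against 574.0, 485.5 and 487.2 CPM in males. Female library 3 was the highest and female library 2 the lowest, so that the male values lay within the female range. Most of these reads fell on few entries: 15 distinct sets averaged 100 reads per library or more, and they are the ones shown in the plot of levels by library.

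**Figure D2:**
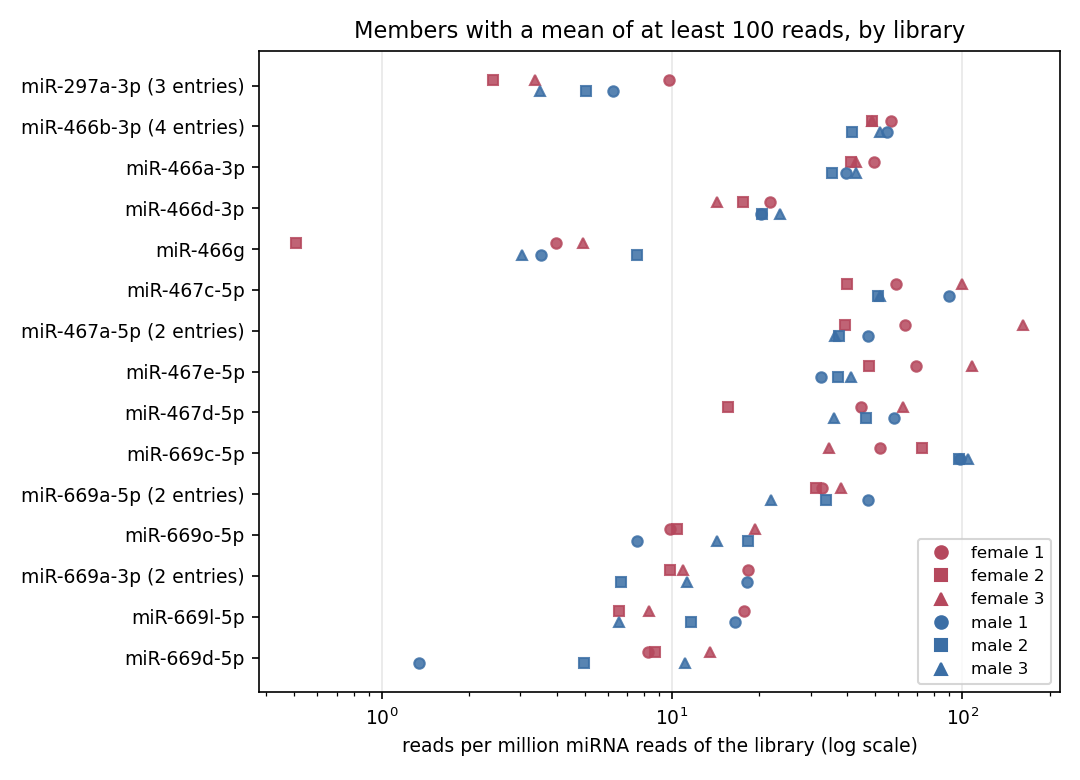
CPM in each library (log scale) of the 15 distinct sets of entries that averaged 100 reads or more, grouped by family; colours give the sex and symbols the library, and entries with identical counts are drawn once with their number in brackets. The 3 male values of miR-669c-5p lie above the 3 female values, those of miR-467e-5p below them, and the others overlap.

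miR-669c-5p had the highest mean of all, 76.6 CPM, and made up 46.1% of the miR-669 reads. The identical entries miR-669a-5p and miR-669p-5p followed with 34.2 CPM, then miR-669o-5p with 13.3 CPM. The identical entries miR-669a-3p and miR-669o-3p, the most abundant 3p form of this family, had 18.3, 9.87 and 10.9 CPM in females and 18.1, 6.67 and 11.3 CPM in males. These overlapped between the sexes, as did the other miR-669 sets of at least 100 reads except miR-669c-5p. miR-669n, named without an arm, had 3 reads over all libraries.

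miR-467 reads were spread more evenly. miR-467c-5p had a mean of 65.4 CPM, miR-467a-5p with miR-467b-5p 64.4 CPM, miR-467e-5p 56.0 CPM and miR-467d-5p 43.9 CPM. miR-467c-5p had 59.1, 40.1 and 99.6 CPM in females and 90.0, 51.3 and 52.2 CPM in males, which overlap. Female library 3 had the highest value for each of these 4 sets, 162.4 CPM in the case of miR-467a-5p with miR-467b-5p. The order of the first means (65.4, 64.4 and 56.0 CPM) was not tested. Their spread over libraries reached 65.2 CPM (SD, n = 3 females) for miR-467a-5p with miR-467b-5p. Members counted in the same library are not independent, so this spread does not measure their differences, and ratios within a library are given below.

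Among miR-466 entries, the identical entries miR-466b-3p, miR-466c-3p, miR-466e-3p and miR-466p-3p led with 50.6 CPM, followed by miR-466a-3p with 42.0 CPM and miR-466d-3p with 19.7 CPM. The leading set had 56.9, 49.0 and 49.0 CPM in females and 54.9, 41.7 and 52.1 CPM in males. Its highest value was 1.37 times its lowest. miR-466d-3p had 21.8, 17.6 and 14.3 CPM in females and 20.3, 20.4 and 23.5 CPM in males. The ratio of miR-466a-3p to the leading set, which does not depend on any scaling between libraries, ranged from 0.724 to 0.875. miR-466g, named without an arm, ranged from 0.505 CPM in female library 2 to 7.58 CPM in male library 2.

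miR-297 was the least abundant family. The identical entries miR-297a-3p, miR-297b-3p and miR-297c-3p had 144, 143 and 121 reads in females and 117, 222 and 83 reads in males, and made up 77.7% of the family's CPM. The highest 5p form, miR-297b-5p, had 14 and 134 reads in female libraries 1 and 3 and 29 in male library 1, and no read in the other 3 libraries. The mean level of this family was therefore set mainly by a single set of counts, whose sexes overlapped. In female library 3, however, that set had fewer reads (121) than miR-297b-5p (134).

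The entries matched only to precursors outside Sfmbt2 had few reads. These 8 entries had a median of 2.5 reads in total, 3 of them had none and none reached a mean of 100 reads. The 62 entries with precursors only inside Sfmbt2 had a median of 230.0 reads, 13 had none and 21 reached that mean. The 5 entries not matched by name, which may lie on either side, were left out, and among them miR-466a-3p had 8052 reads. The annotation also held a precursor named Mir466, without a letter, inside Sfmbt2, to which no entry was matched. miR-466i-5p was the most abundant entry from outside, with 22, 173 and 61 reads in females and 71, 137 and 1 reads in males. Its partner miR-466i-3p had 15 reads in male library 3 and none elsewhere. These counts are descriptions, since entries of one name and identical sets are not independent.

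The families differed in the arm that carried the reads. A 5p and a 3p form were both listed for 33 precursor names. Names that share identical counts on an arm were each counted, so the numbers of names are not independent. This holds for the 3p form of miR-466b, miR-466c, miR-466e and miR-466p, and for that of all miR-297 names. It also holds for the 5p form of miR-467a and miR-467b. In miR-467, the 5p form was higher in every library with reads for all 5 such names, and 5p entries made up 98.3% of the family's CPM. In miR-466, the 3p form was higher in this way for 7 names, 5 varied by library or had no read in some, 1 had no read, and 3p entries made up 91.0%. In miR-669, the 5p form was higher for 6 of 12 names and varied or had no read in some libraries for the other 6, with 90.9% of CPM on 5p entries. In miR-297, 77.7% was on 3p entries. miR-669c and miR-669d had 14924 and 1630 reads on the 5p form and none on the 3p form, and miR-466d had 3712 reads on the 3p form and none on the 5p form. By contrast, the ratio of 5p to 3p reads of miR-669o ranged from 0.417 to 2.74 across libraries and was on both sides of 1 in each sex. Its 3p counts are identical to those of miR-669a-3p, so this ratio cannot be read as the arm use of a single precursor. The plot of 5p against 3p reads places the 5 miR-467 names in the upper part and most miR-466 names at the lower right.

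**Figure D3:**
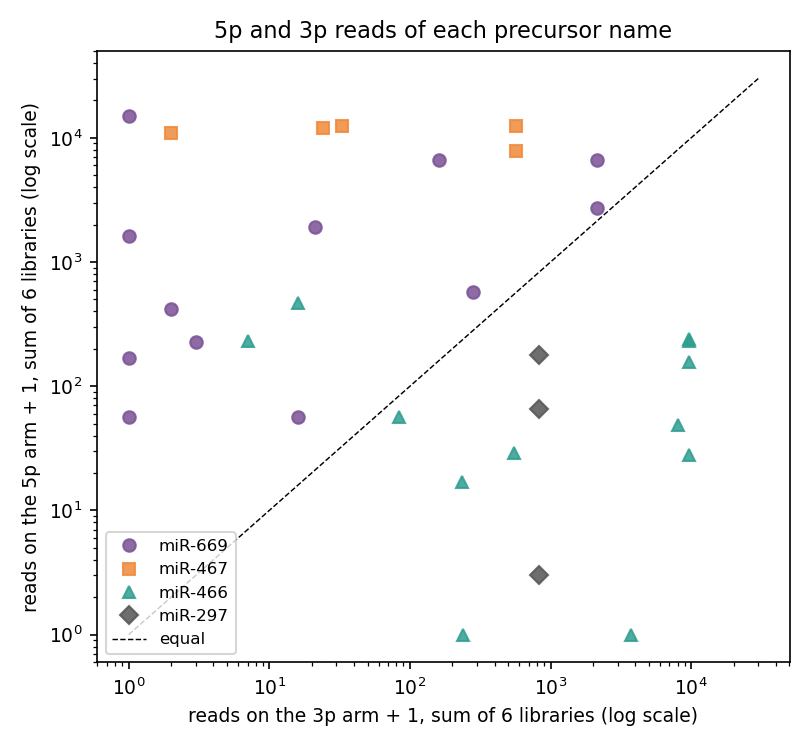
Reads on the 5p arm against reads on the 3p arm (each plus 1, summed over the 6 libraries, log scales) for the 32 precursor names with a read on either arm, by family; the dashed line marks equal reads. All 5 miR-467 names and all 12 miR-669 names lie above the line, and the 3 miR-297 names lie below it.

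Male and female libraries were compared for the 1120 miRNAs with at least 10 reads in total, by edgeR's quasi-likelihood test (two-sided) with Benjamini-Hochberg adjustment over all 1120. Of the 80 entries, 55 could be tested, in 43 distinct sets: 5 of miR-297, 23 of miR-466, 9 of miR-467 and 18 of miR-669. The test called 3 of them female-biased, all of them 5p forms of miR-467, and none male-biased, at an adjusted p below 0.05. Over all miRNAs it called 5.27% female-biased and 3.21% male-biased, so that the share of members called female-biased was close to the background. With unadjusted p below 0.05 there were 4 members, 1 of them male-biased, against 18.4% of all miRNAs tested. The 3 calls were 2 distinct sets of counts, and when entries with identical counts were merged over the whole table neither set passed.

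miR-467e-5p had 1027, 2825 and 3856 reads in females and 611, 1641 and 975 reads in males. In CPM these were 69.4, 47.6 and 107.7 in females and 32.7, 37.4 and 41.3 in males. All 3 male libraries lay below all 3 female libraries. The mean was 74.9 ± 30.4 CPM in females and 37.1 ± 4.28 CPM in males (SD, n = 3 each), and the log2 fold change, male over female, was -1.12 (SE 0.32, adjusted p = 0.0272 in edgeR's test). The call was lost without female library 3 (-0.78, adjusted p = 0.219), without male library 1 (-0.98, adjusted p = 0.296), without male library 3 (-1.20, adjusted p = 0.0507) and with library totals in place of TMM scaling (-1.01, adjusted p = 0.0772), and held in 10 of 15 alternatives.

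The identical entries miR-467a-5p and miR-467b-5p had 937, 2337 and 5814 reads in females and 884, 1646 and 864 reads in males. In CPM these were 63.3, 39.4 and 162.4 in females and 47.3, 37.5 and 36.6 in males. Female library 3 was far above the rest, and female library 2 lay within the male range. The log2 fold change was -1.24 (SE 0.37, adjusted p = 0.0327 in edgeR's test). Without female library 3 it was -0.48 (adjusted p = 0.540), and without male library 1 it was -1.29 (adjusted p = 0.316), and the call held in 8 of 15 alternatives.

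miR-669c-5p, the most abundant member, had the opposite direction. It had 772, 4322 and 1243 reads in females and 1830, 4285 and 2472 reads in males, or 52.2, 72.8 and 34.7 CPM against 97.9, 97.6 and 104.6 CPM. Each of the 3 male values exceeded each of the 3 female ones. Its log2 fold change was 0.76 (SE 0.30), which did not pass edgeR's test (adjusted p = 0.142). Without female library 2, the library that stood apart, it was 1.14 and passed (adjusted p = 0.000186), whereas without female library 3 it was 0.52 (adjusted p = 0.414). In DESeq2 with 1 factor of unwanted variation (RUVr), the kind of model named in the study's methods, it was 0.99 and passed (adjusted p = 0.000831), while the median of all miRNAs moved from -0.02 to 0.24. It passed in 3 of 15 alternatives. That model called this 1 member male-biased and the same number as before, 3, female-biased, where it called 10.4% and 8.93% of all miRNAs tested. The 3 were again miR-467a-5p, miR-467b-5p and miR-467e-5p.

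Ratios within a library, which no scaling between libraries can move, showed the same contrast for some pairs of members but not for others. The ratio of miR-669c-5p to miR-467e-5p reads was 0.752, 1.53 and 0.322 in females and 2.99, 2.61 and 2.54 in males. The ratio of miR-467e-5p to miR-467c-5p was 1.17, 1.19 and 1.08 in females and 0.364, 0.728 and 0.790 in males. In both cases the sexes did not overlap, but the first ratio divides a member with higher levels in males by a member with lower levels. By contrast, the ratio of miR-467d-5p to miR-467c-5p was 0.760, 0.390 and 0.626 in females and 0.644, 0.908 and 0.694 in males, which overlap. Within its own family, the ratio of miR-669c-5p to miR-669a-5p was 1.59, 2.32 and 0.909 in females and 2.07, 2.88 and 4.78 in males, which also overlap. The members of these ratios were chosen with their values known, so they describe the counts and are no further test.

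**Figure D4:**
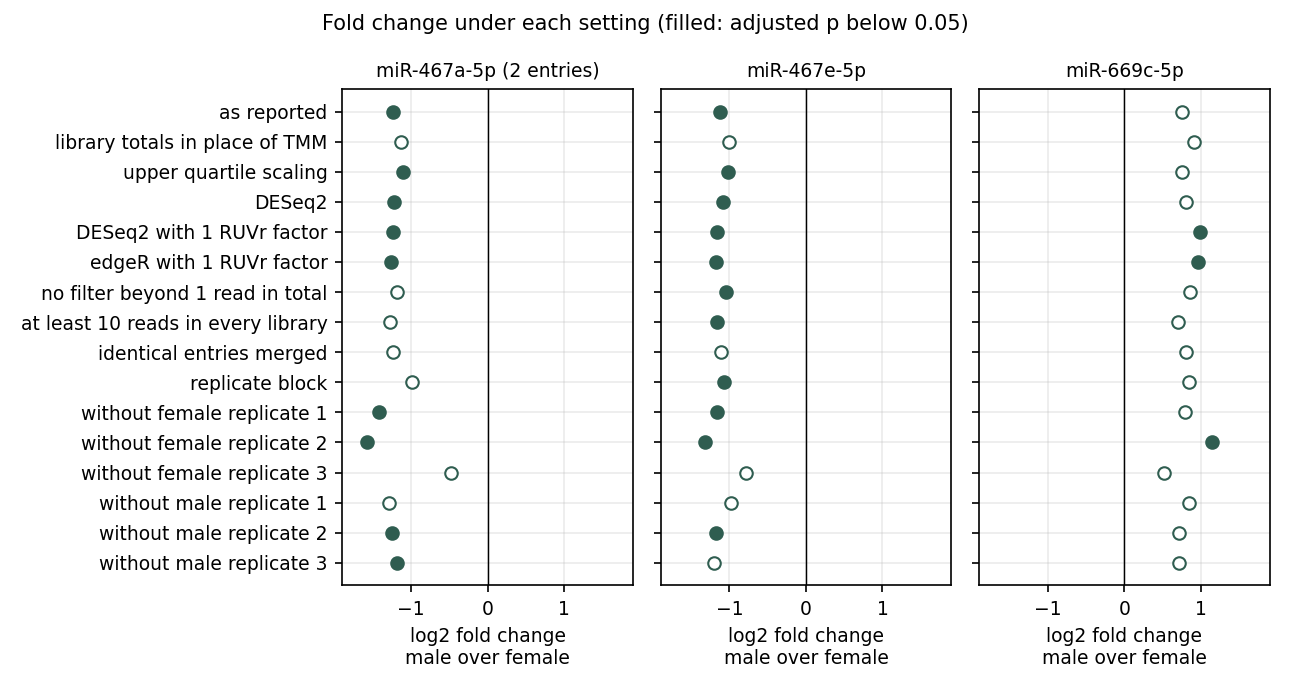
Log2 fold change, male over female, of miR-467a-5p with miR-467b-5p, miR-467e-5p and miR-669c-5p as reported and under the 15 other settings, 1 row each; a filled point has an adjusted p below 0.05. All points of the first 2 panels lie below 0 and all of the third above 0, while the calls vary by setting.

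Over the 55 tested members, 20 had a log2 fold change above 0 and 35 below, with a median of -0.17. With identical entries counted once, 18 of the 43 distinct sets were above and 25 below, with a median of -0.16. Over all 1120 miRNAs, 550 were above and 570 below, with a median of -0.02. By family, over all tested entries with identical ones each counted, the medians were -0.16 for miR-297, -0.18 for miR-466, -0.17 for miR-467 and -0.20 for miR-669. For miR-297, 3 of the 5 values came from a single set of counts (-0.16), and the others were -7.7 and -1.81. In CPM scaled by TMM, the sexes did not overlap for 2 members with males above (miR-669c-5p and miR-466f-3p) and 5 with females above (the 3 called members, miR-466a-3p and miR-669f-3p), against 23.8% of all miRNAs tested. Of the 55, 11 had no read in one sex, and their fitted fold changes are no measure of size. With these at the bound that 3 reads over the libraries of that sex would give, the median was again -0.17.

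**Figure D5:**
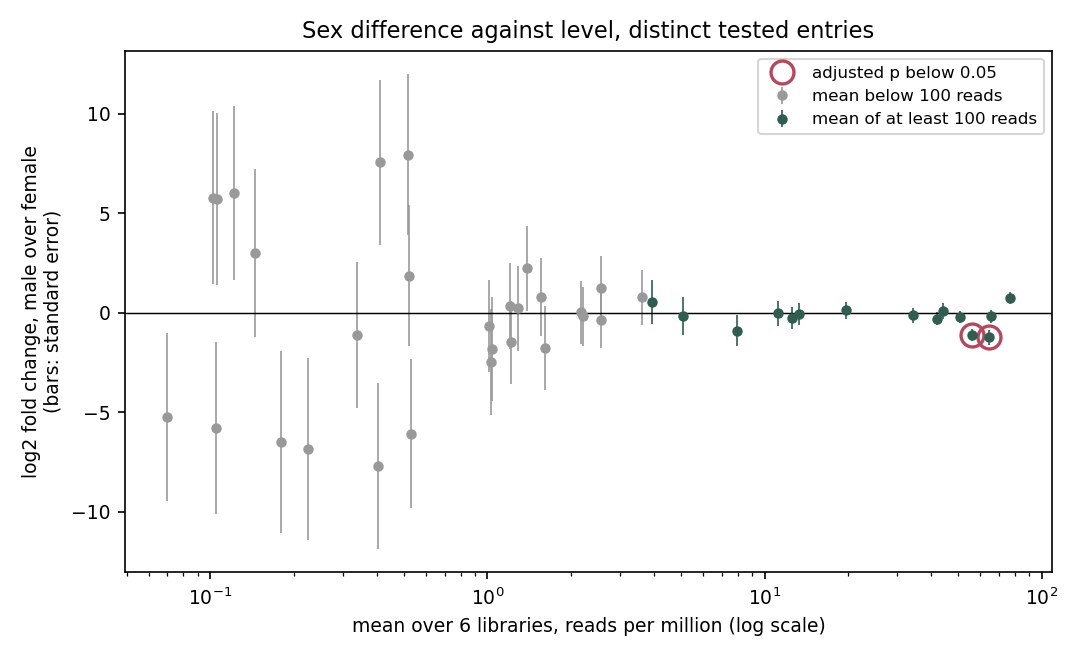
Log2 fold change, male over female, with its standard error against mean CPM over the 6 libraries (log scale) for the 43 distinct tested sets, dark for a mean of at least 100 reads and grey for less; rings mark an adjusted p below 0.05. The grey points scatter most at the lowest levels, and the dark ones lie between -1.24 and 0.76.

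The other members averaging 100 reads or more had small or uncertain differences. Of the 15 distinct sets, 10 had a log2 fold change within 0.5 of 0. miR-669d-5p had 8.24, 8.76 and 13.5 CPM in females and 1.34, 4.96 and 11.1 CPM in males (log2 fold change -0.90, SE 0.77, adjusted p = 0.520 in edgeR's test). miR-466g had a log2 fold change of 0.54 (SE 1.12, adjusted p = 0.856) and miR-466d-3p of 0.13 (SE 0.42, adjusted p = 0.905) in the same test. For the leading miR-466 set, miR-466b-3p with its 3 identical entries, it was -0.19 (SE 0.30, adjusted p = 0.798). The standard errors of these 15 sets ran from 0.30 to 1.12, and those of the 28 sets with fewer reads from 1.37 to 4.57. Differences of ordinary size in the low members were therefore not detectable in these libraries. Some low sets, such as miR-467a-3p with miR-467d-3p (SE 1.37), had reads in every library but female library 2, the deepest.

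The miR-669 and miR-467 sums were also taken without miR-669c-5p, which did not pass edgeR's test, and without the 3 called miR-467 members, respectively. These members were chosen with their values known, so this describes the sums and is no test. The miR-669 sum was 148.0, 149.0 and 137.3 CPM in females and 202.3, 181.5 and 179.8 CPM in males, with all males above all females (log2 ratio of means 0.38). Without miR-669c-5p it was 95.9, 76.1 and 102.6 CPM against 104.4, 83.9 and 75.2 CPM, and the sexes overlapped (log2 ratio -0.06). The miR-467 sum was 241.9, 142.7 and 435.5 CPM in females and 232.1, 177.8 and 171.7 CPM in males, which overlap (log2 ratio -0.50, and 0.01 without female library 3). Without its 3 called members the log2 ratio was 0.08. The miR-466 sum averaged 129.5 ± 16.8 CPM in females and 129.2 ± 7.04 CPM in males, and the miR-297 sum 7.56 ± 4.75 CPM and 5.46 ± 2.18 CPM (SD, n = 3 each), both with overlap. In bulk tissue, fewer cells that make a miRNA and less of it per cell cannot be told apart.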

How the data were processed

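Small RNA libraries were made from 6 pools of brain RNA (3 female, 3 male). The authors removed adaptors with cutadapt 1.15 and used Bowtie 1.2.1 and miRDeep2 to map reads to mm9 and miRBase v.21 and to count known miRNAs. What the authors deposited are raw read counts per mature miRNA, without normalization and with no molecular identifiers named, so a count can include copies of one molecule. Members, lists and tests were chosen with earlier results of these data known. In R 4.3.3, miRNAs with at least 10 reads in total (1120 of 1915) were scaled by TMM and tested for sex with edgeR 4.0.16 (glmQLFit, glmQLFTest), and p-values were adjusted by Benjamini-Hochberg (threshold 0.05). The SE is the absolute log2 fold change over the square root of F. An exact permutation test of 3 against 3 cannot go below p = 0.1 and was not used. Alternatives were other scalings, DESeq2 1.42.0, RUVr written out from edgeR's deviance residuals, other filters, merged entries, a replicate block and each library left out. Procedures were tested on simulated data. Named members were the highest of each family and arm, those with an adjusted p below 0.05 in edgeR or in DESeq2 with RUVr, and the 3 largest changes each way with a mean of at least 100 reads. Others named, and the within-library ratios, were chosen after their values were seen. Precursors came from GENCODE vM1 on mm9, with names matched through RefSeq synonyms.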

Additional observations from a re-analysis of the deposited data

How the results depend on the processing

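The 3 libraries per sex limit these results, and entries with fewer than about 100 reads per library had standard errors too large to show a change of ordinary size. The 3 female-biased members became 0 with library totals in place of TMM and with identical entries merged, and 1 (miR-467e-5p) with no filter, with at least 10 reads in every library and with the replicate block; each time the log2 fold changes stayed negative. They numbered 0 to 3 when 1 library was left out, 0 without female library 3 or male library 1. Male-biased members rose from 0 to 1 (miR-669c-5p) with 1 RUVr factor in DESeq2 and in edgeR, and numbered 0 to 1 when 1 library was left out. The miR-669 sum, 0.38 on the log2 scale, was 0.24 with TMM scaling. Directions turned only for members without a call: miR-297b-5p with RUVr in DESeq2 (0.79) and edgeR (0.50), miR-297a-3p with its identical entries (0.03 with the replicate block, -0.47 to 0.66 with 1 library left out, above 0 without female library 1 or male library 3), miR-466i-5p (-0.85 with the replicate block, -0.40 to 0.59 with 1 library left out), and, over the libraries left out, miR-466g (-0.08 to 1.04), miR-467c-5p (-0.40 to 0.23), miR-466d-3p (-0.02 to 0.32) and miR-669a-3p with miR-669o-3p (-0.59 to 0.09). The cause was not tested. The median of all miRNAs, -0.02, was 0.11 with library totals, 0.24 and 0.22 with RUVr in DESeq2 and edgeR and -0.15 with at least 10 reads in every library; relative to it, miR-669c-5p differed by 0.78 as reported and by 0.75 and 0.74 with RUVr. With the replicate block, miR-467a-5p with miR-467b-5p had -0.99 and did not pass. The labels do not say whether replicate numbers pair the samples. Deviations of same-numbered libraries correlated at -0.0801, 0.0289 and 0.158 over 553 miRNAs, and those of differently numbered libraries at -0.183 to 0.155. With so few libraries these values cannot settle whether the samples were paired. Calls over all miRNAs went from 95 to 92 with the block, and were 129 in DESeq2, 216 and 189 with RUVr in DESeq2 and edgeR, 64 with entries merged, 60 without female library 3, 203 without female library 2 and 30 without male library 1. The offset for GC content, alone or with the replicate block, was not run, since only 8 of the 80 members had a mature sequence in the table used.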
